A study of Mus musculus with 22 samples.

Results

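The T-box and limb identity factors are transcription factors that give a limb its position, type and axes: Tbx2, Tbx3, Tbx4, Tbx5, Tbx15, Tbx18, Pitx1, Isl1, Hand2 and Lmx1b. They were taken by gene name, or by a RefSeq accession of the same gene, from the probes of the arrays, which gave 10 of 16156 named genes tested, by 17 of 41174 probes. The samples were forelimbs of mouse embryos of strain 129 at 13.5 days of development, 13 from Chsy-1 knockout embryos and 9 from wild-type embryos. Both genotypes shared strain, age and tissue, and the sources used here do not say how the Chsy1 allele was made or whether a sample was 1 embryo or a pool. P-values therefore measure the spread between these samples, and fewer cells of a type and less RNA per cell cannot be told apart. Forelimb RNA carried Cy5 and was hybridised beside 1 Cy3-labelled universal mouse reference RNA with no dye swap, so each value is a log2 ratio of forelimb to reference. The question of the design is what the loss of Chsy1, an enzyme that builds chondroitin sulfate chains, does to forelimb transcripts.

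In the limb bud, Tbx5 starts forelimb outgrowth, while Tbx4 acts in the hindlimb downstream of Pitx1, and Isl1 is needed for the hindlimb to begin. Hand2 sets up the posterior margin and, with it, Sonic hedgehog signalling, Tbx2 and Tbx3 mark the anterior and posterior margins and repress their targets, and Lmx1b gives dorsal cells their identity. Tbx15 and Tbx18 are related repressors expressed in limb mesenchyme, where Tbx15 is needed for normal growth of skeletal elements.

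Upstream sequences were available in the RefSeq promoter table (GRCm38.p6) for 5 of the 10 genes, and the 250 bases before the start site are shown for 4: Tbx4 and Hand2, which varied together most closely across arrays, and Tbx18 and Isl1, which moved together in the wild-type arrays. They lie in that build, which differs from the build of the probe coordinates below, as follows: Tbx4 at chr11:85896515-85896764 (plus strand), Hand2 at chr8:57320733-57320982 (plus strand), Tbx18 at chr9:87731261-87731510 (minus strand), Isl1 at chr13:116309689-116309938 (minus strand). Capitals mark matches on either strand to 5 motifs, none of which overlaps another in these windows.
Tbx4: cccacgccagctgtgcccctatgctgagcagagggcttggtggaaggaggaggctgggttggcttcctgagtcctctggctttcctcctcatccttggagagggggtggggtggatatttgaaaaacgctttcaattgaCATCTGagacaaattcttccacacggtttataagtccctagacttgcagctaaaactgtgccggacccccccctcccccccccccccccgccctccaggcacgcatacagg
Hand2: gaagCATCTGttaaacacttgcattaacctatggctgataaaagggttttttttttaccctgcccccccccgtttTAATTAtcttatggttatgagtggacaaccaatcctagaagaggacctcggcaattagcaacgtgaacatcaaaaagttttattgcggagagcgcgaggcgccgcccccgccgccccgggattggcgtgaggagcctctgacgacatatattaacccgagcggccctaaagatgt
Tbx18: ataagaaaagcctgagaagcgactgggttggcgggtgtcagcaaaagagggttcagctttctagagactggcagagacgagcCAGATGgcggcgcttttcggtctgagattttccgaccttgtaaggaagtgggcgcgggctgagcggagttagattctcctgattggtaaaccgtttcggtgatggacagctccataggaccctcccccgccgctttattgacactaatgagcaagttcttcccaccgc
Isl1: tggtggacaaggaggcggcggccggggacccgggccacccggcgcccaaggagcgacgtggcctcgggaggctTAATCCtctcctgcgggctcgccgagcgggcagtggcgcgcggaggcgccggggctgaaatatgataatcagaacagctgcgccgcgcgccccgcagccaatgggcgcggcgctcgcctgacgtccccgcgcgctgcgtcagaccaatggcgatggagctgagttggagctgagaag
The E-box variant CATCTG, a sequence of the kind that proteins of the Hand2 class bind, begins 111 bases before the start of Tbx4, 246 before that of Hand2 and 168 before that of Tbx18, the last on the opposite strand. It was found in 3 of the 5 windows and in 14.4% of the 32851 upstream windows of the same length. The Pitx-type homeodomain site TAATCC was found 177 bases before the start of Isl1 and in 6.25% of all windows. The LIM-type homeodomain site TAATTA was found 175 bases before the start of Hand2 and in 4.84% of all windows. The T-box site AGGTGT, which 11.8% of all windows hold, and the Gli site GACCACCCA, which 0.225% hold, were in none of the 5. The window of Lmx1b held no match to any of the 5 motifs. No entry was matched for Tbx2, Tbx3, Tbx5, Tbx15 and Pitx1. A match describes letters in the window and not a bound site.

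The median Cy5 signal of an array ran from 102.8 to 178.9 units, and Cy5 was well above background in 27214 to 30599 of the 43379 spots that are not controls. The number of arrays limits the precision. Chsy1 itself, which checks the labels, averaged -4.38 ± 1.39 (SD, n = 13) in knockout and 1.73 ± 0.28 (SD, n = 9) in wild type, a difference of -6.11 (limma adjusted p = 1.26e-08). The library labelled knockout 1 went against this, at 0.15 where the other 12 knockout arrays lay between -5.12 and -4.05. Wild-type 1 stood apart in many of the ratios after normexp background correction and loess. There it was the lowest of the 22 arrays for 16.9% of the 18631 genes and unnamed probes tested, and knockout 12 was also low for several marker lists. Differences are given below with and without the arrays that change them. The 6 slides each held both genotypes, but position 1 on the slide held 6 wild-type arrays, position 2 held 3 of each genotype, and positions 3 and 4 held 6 and 4 knockout arrays.

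None of the 10 factors passed the threshold between knockout and wild-type forelimbs, where limma called 0.0215% of all genes at an adjusted p of 0.05. At an unadjusted p under 0.05 there were 2, Isl1 higher in knockout and Pitx1 lower, where 5.34% of all genes lay, 1.39% in the higher and 3.95% in the lower direction. The difference was above 0 for 8 factors and below 0 for Pitx1 and Tbx15, with a median of 0.09 on the log2 scale, beside -0.0072 for all genes tested. The mean was higher in knockout for 46.6% of all genes. All 10 factors passed the filter on low signal, each with Cy5 well above background on all 22 arrays by the probe that represents it.

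The forelimbs gave signal from the hindlimb factors as well as from Tbx5. The probe of Tbx5, the forelimb factor (chromosome 5, 120144695 to 120144754 in mm8, the build of the files), had a Cy5 signal of 453, 690.2 and 1153 units (lowest, median and highest) in knockout, against 351, 563 and 1146 in wild type. The Pitx1 probe (chromosome 13, 55834678 to 55834737) had 52082, 70811 and 82487 units in knockout and 27170, 59776 and 85995 in wild type, with a local background of 54.5 to 69.5 units. None of these values was marked as saturated. Both Tbx4 probes were also well above background on all 22 arrays, the first (chromosome 11, 85727345 to 85727404) at 117, 139.5 and 217 units in knockout and 89.2, 133 and 217 units in wild type. The reference RNA gave no signal above background at either Tbx4 probe on any array.

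Genes of the Hoxc cluster known for a hindlimb bias gave signal too. Hoxc9, both probes of Hoxc10 and Hoxc12 were well above background on all 22 arrays (13 knockout and 9 wild type), and Hoxc13 on 10 of 13 knockout and 8 of 9 wild-type arrays. Of the genes with a forelimb bias, Hoxc4 and Hoxc6 were above background on all 22, and Hoxc5 on 11 of 13 knockout and 8 of 9 wild-type arrays. Shh, the posterior signal that Hand2 helps to start, and En1, a ventral ectoderm factor, were above background on 0 arrays. The labels name forelimbs, and whether the signal of Pitx1, Tbx4 and the hindlimb-biased Hox genes came from forelimb cells, from other tissue or from related transcripts was not tested. A second Tbx5 probe (chromosome 5, 120132000 to 120143562) was above background on knockout 1, 7 and 10 and wild-type 8 and was not tested, and knockout 10 had 309 units there while every other array had 93 or fewer.

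**Figure D1:**
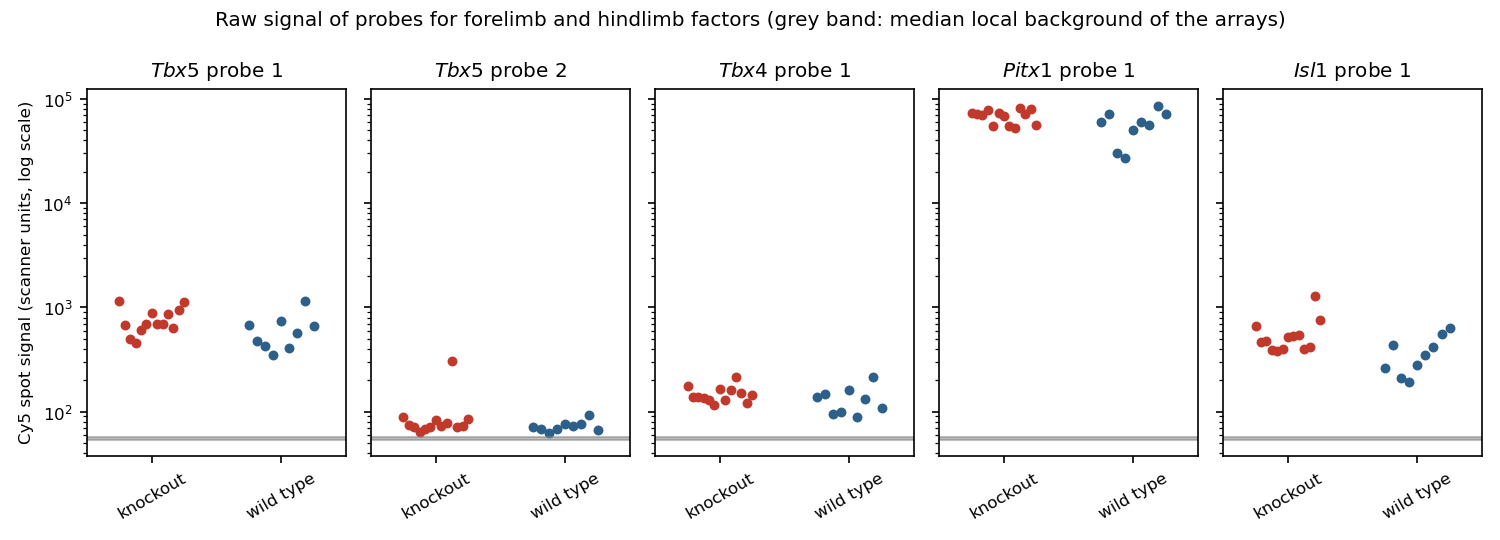
Cy5 spot signal (scanner units, log scale) of 5 probes in each of 13 knockout (left, red) and 9 wild-type (right, blue) arrays, with the median local background of the arrays, 54 to 57 units, as a grey band. Pitx1 and Tbx4 signals lie above the band on all 22 arrays, and the second Tbx5 probe lies close to it except in knockout 10, at 309 units; levels of different probes are not comparable.

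Among the factors that set limb type, Pitx1 tended lower and Isl1 higher in knockout, both short of the threshold. The log2 ratio of Pitx1 was 5.18, 5.48 and 5.75 (lowest, median and highest) in knockout, against 5.12, 5.67 and 6.02 in wild type. The groups overlapped, but 12 of 13 knockout values were under the median of wild type. The means were 5.45 ± 0.15 (SD, n = 13) in knockout and 5.64 ± 0.27 (SD, n = 9) in wild type. The difference was -0.18 (95% interval -0.36 to -0.00094, unadjusted p = 0.049, adjusted p = 0.918 in limma). Without wild-type 1, the lowest array for this gene, it was -0.25 (interval -0.40 to -0.09, adjusted p = 0.831). With the slide as a block the interval ran from -0.38 to 0.03, and without knockout 1 from -0.37 to 0.01. The Cy5 channel alone, normalised without the reference, turned the direction, at 0.09. Pitx1 ratios were lower on arrays of higher median Cy5 signal (Pearson r = -0.598, permutation p = 0.0152, Spearman rho = -0.503, p = 0.0283, n = 22). This did not pass adjustment over the 20 relations computed (adjusted p = 0.304), and r was -0.365 without the 2 farthest arrays.

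Isl1, a LIM homeodomain factor of the early hindlimb field and of motor neurons (chromosome 13, 117419248 to 117419307), had log2 ratios of 1.71, 2.02 and 2.45 in knockout, against 0.42, 1.88 and 2.48 in wild type. All knockout values lay inside the wild-type range, and 11 of 13 lay above its median. The difference was 0.37 (95% interval 0.02 to 0.72, adjusted p = 0.918 in limma, 1.29-fold). It rested in part on wild-type 1, which was 1.45 below the mean of the other 8 wild-type arrays. Without it the difference was 0.21 (interval -0.04 to 0.46). Within position 2, the only position that held both genotypes, it was -0.03. It was above 0 on 4 of the 6 slides, with a range of -0.15 to 1.01. The probe was printed in 10 spots per array, whose log2 ratios had an SD of 0.041 to 0.189, which covers the spots of 1 hybridisation only. Without knockout 1 the interval ran from -0.0091 to 0.71. The reference gave no Isl1 signal above background on any array, so each ratio is a lower bound on forelimb over reference. The same holds for Tbx4 on all arrays, and for Hand2 on those outside the 8 of 22 with reference signal above background. It also holds for Tbx5 on arrays outside 14 of 22 and for Lmx1b on those outside 4 of 22.

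Markers of peripheral and motor neurons, where Isl1 is also expressed, did not shift as a list. Of 12 listed genes 10 were tested, 5 higher and 5 lower in knockout and 0 past the threshold, with a median difference of 0.03. The mean level of the list ran from -0.32 to 0.23 in knockout and from -0.58 (wild-type 1) to 0.11 in wild type. Its neurofilament gene Nefm had a difference of 0.46 (interval 0.08 to 0.83, adjusted p = 0.918), or 0.28 without wild-type 1. The part of neurons in the Isl1 values was not tested.

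Tbx4 had log2 ratios of 0.24, 0.70 and 0.98 in knockout, against 0.16, 0.65 and 1.03 in wild type. The groups overlapped along their whole range, and the difference was 0.11 (interval -0.09 to 0.31, adjusted p = 0.938). A second probe (chromosome 11, 85732087 to 85732146) gave 0.07 (interval -0.12 to 0.26). The 2 probes followed each other weakly across arrays (r = 0.464, rho = 0.263, permutation p = 0.057 and 0.276, n = 22). Tbx5 had 1.80, 2.45 and 2.76 in knockout, against 1.10, 2.32 and 2.81 in wild type. Its difference was 0.20 (interval -0.14 to 0.54, adjusted p = 0.931), or 0.06 without wild-type 1. Heart markers were listed because Tbx5 and Hand2 are also heart factors. Of these markers 8 of 9 were lower in knockout, with a median difference of -0.11 and 0 past the threshold. Of all genes, 46.6% had a higher mean in knockout. The skeletal muscle list also had 8 of 9 lower, with a median of -0.13. The mean level of the heart list ran from -0.34 to 0.17 in knockout and from -0.54 (wild-type 1) to 0.23 in wild type. The part of these markers in the Tbx5 and Hand2 values was not tested.

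The factors of the limb margins varied more between arrays than between genotypes. Hand2 (chromosome 8, 60214596 to 60215955) had log2 ratios of 0.88, 2.50 and 2.96 in knockout, against 1.09, 2.20 and 2.86 in wild type. The lowest knockout value was knockout 12 and the lowest wild-type value wild-type 1, and the groups overlapped. The difference was 0.25 (interval -0.18 to 0.68, adjusted p = 0.937), or 0.12 without wild-type 1 and -0.12 within position 2. A second probe gave 0.21 (interval -0.21 to 0.62) and followed the first closely (r = 0.966, rho = 0.907, permutation p = 1e-05 for each, the smallest that 100000 permutations can give, n = 22). Tbx2 (chromosome 11, 85657187 to 85657246) had 2.38, 3.04 and 3.42 in knockout and 2.12, 3.0998 and 3.48 in wild type. Its difference was 0.03 (interval -0.25 to 0.30, adjusted p = 0.989), or -0.08 without wild-type 1. Tbx3 (chromosome 5, 119945081 to 119945140) had 1.19, 1.53 and 2.21 in knockout and 0.63, 1.57 and 2.13 in wild type. Its difference was 0.12 (interval -0.20 to 0.44, adjusted p = 0.962), or 0.0091 without wild-type 1. Knockout 12, the lowest knockout array for Tbx2, was the highest of all arrays for Tbx3. A second Tbx3 probe was above background on 1 of 13 knockout and 2 of 9 wild-type arrays and was not tested.

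The mesenchymal factors and the dorsal factor differed by little. Tbx18 (chromosome 9, 87502625 to 87502684) had log2 ratios of 1.97, 2.44 and 2.55 in knockout, against 1.31, 2.49 and 2.73 in wild type. Its difference was 0.05 (interval -0.22 to 0.32, adjusted p = 0.979), or -0.08 without wild-type 1, and the second probe also gave 0.05. Lmx1b (chromosome 2, 33386753 to 33387100) had 0.17, 0.40 and 0.57 in knockout, against 0.11, 0.28 and 0.72 in wild type. Of the 13 knockout values, 12 were over the median of wild type, yet the difference was 0.07 (interval -0.06 to 0.20, adjusted p = 0.938). At its dim signal, 88.7 to 156 units in Cy5, the offset added during background correction compresses ratios. Tbx15 (chromosome 3, 99483039 to 99483098) had 2.30, 2.77 and 3.45 in knockout, against 2.34, 2.82 and 3.75 in wild type, a difference of -0.07 (interval -0.41 to 0.28, adjusted p = 0.979). For all 3 genes the groups overlapped.

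**Figure D2:**
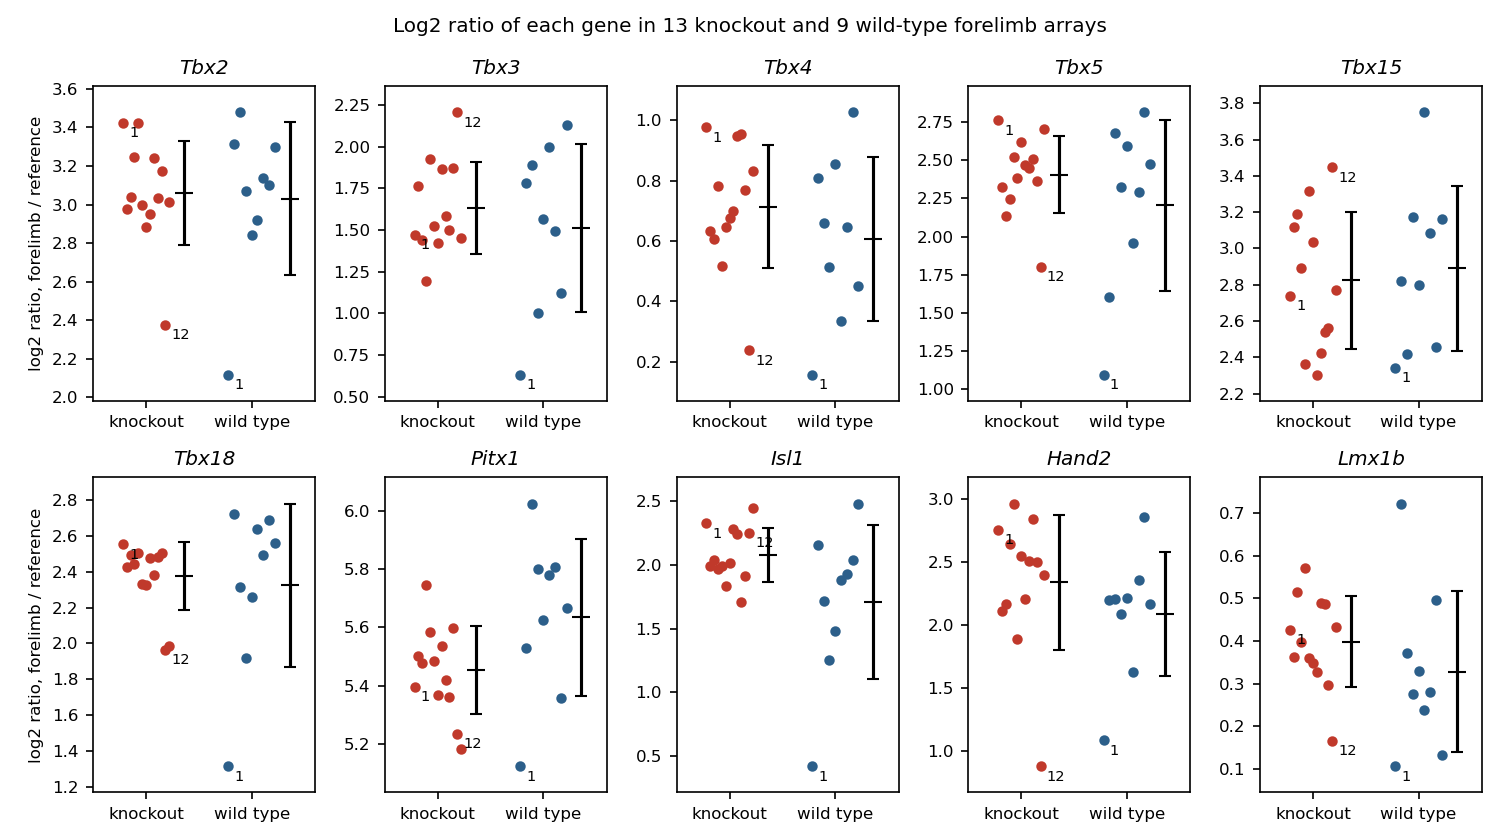
Log2 ratio of forelimb to reference of the 10 factors in each of 13 knockout (left, red) and 9 wild-type (right, blue) arrays, with the mean and SD of each group as black bars; the axes differ between panels, and knockout 1, knockout 12 and wild-type 1 are numbered. The groups overlap for each factor, and wild-type 1 is the lowest array of all 22 for 8 of the 10.

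The intervals bound how large a difference these arrays leave for each normalised ratio. For 8 of the 10 factors, all but Isl1 and Hand2, the 95% interval excluded a change of 1.5-fold up or down, as it did for 96.6% of all genes. It included 0 for 8. Direction was less settled. Without wild-type 1 the difference was above 0 for 6 factors and below 0 for 4, since Tbx2 and Tbx18 turned, and 0 passed the threshold. With the position on the slide as a block, which rests on the 6 arrays of position 2, Tbx2, Tbx3, Tbx5, Tbx18, Isl1 and Hand2 fell below 0 and Tbx15 rose above it, with intervals that include 0 for each of the 10. In that fit the intervals of Tbx3, Tbx5, Tbx15, Tbx18, Isl1 and Hand2 reached past a 1.5-fold change. They ran, for example, from -0.66 to 0.62 for Tbx3, from -0.76 to 0.52 for Tbx5 and from -0.57 to 0.80 for Tbx15. Position and genotype cannot be told apart outside position 2.

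**Figure D3:**
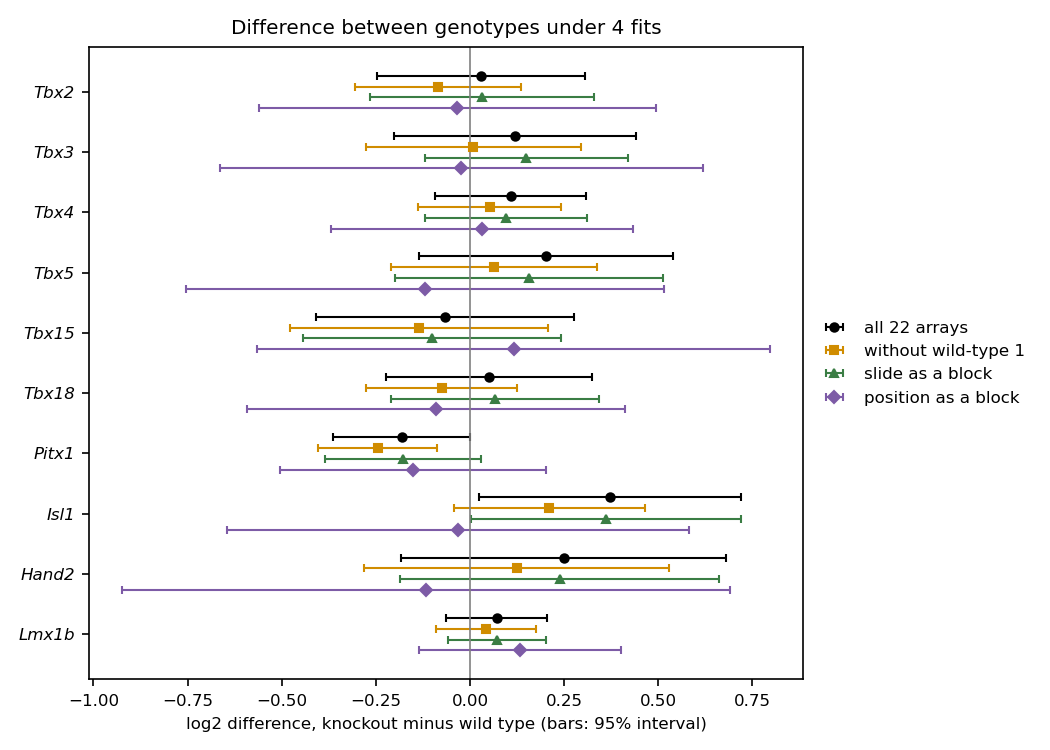
Log2 difference, knockout minus wild type, of each factor with its 95% interval under 4 fits: all 22 arrays, without wild-type 1, with the slide as a block and with the position on the slide as a block. Isl1 and Pitx1 are the 2 whose interval leaves out 0 with all arrays, at 0.37 and -0.18, and with position as a block every interval includes 0.

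Wild-type 1 was low across the factors in the ratios to the reference after normexp correction, with loess or with median centring. After normexp and loess it was the lowest wild-type array for all 10, where this held for 22.9% of all genes, and the lowest of the 22 arrays for 8, where 16.9% did. For 1 of the 10, Tbx2, the gap to the next wild-type array passed Dixon's 95% value, as a gap at either end did for 15.6% of all genes. It lay below the mean of the other 8 wild-type arrays by between 0.25 for Lmx1b and 1.45 for Isl1, so that without it Isl1 averaged 1.87 ± 0.39 (SD, n = 8) rather than 1.71 ± 0.60 in wild type (SD, n = 9). Without background correction, and with the same loess, it was the lowest wild-type array for 1 of the 10, Tbx3. This held for 11.5% of all genes. By the scanner's log ratio and with Cy5 alone it was likewise the lowest for Tbx3 only, beside 9.93% and 9.45% of all genes. The scanner's ratio is background-subtracted too, and Cy5 alone was also corrected by normexp. The low values were thus not shared by all corrected values. These comparisons between normalisations were chosen after seeing the data. In the raw Cy5 signal wild-type 1 was the lowest for 0, where this held for 2.1% of all genes. There it lay above 7 of the other 8 wild-type arrays for Hand2 and Lmx1b and above 5 for Tbx2. The median deviation of the factors from the other wild-type arrays was -1.01 after normexp and loess, and -0.14 without background correction. It was -0.15 with Cy5 alone and -0.078 by the scanner's ratio. With median centring after normexp, wild-type 1 was the lowest for 9, where this held for 26% of all genes. The average deviation of the factors from their medians was -0.85 in this array, and from -0.15 to 0.16 in the other wild-type arrays. Knockout 12, at -0.23, was the lowest of the knockout arrays, which reached 0.19, and had the lowest knockout value for 6 factors. That count was 2 without background correction, 3 with Cy5 alone and 1 by the scanner's ratio. Minus the mean of the other knockout arrays, the Hand2 value of knockout 12 was -1.58 after normexp and loess. It was -0.90 without background correction and -0.72 by the scanner's ratio. Markers of other cell types were low in the same 2 arrays after normexp and loess, to unequal degrees. The cartilage list stood at -0.58 in knockout 12 and -1.05 in wild-type 1, and the endothelial list at -0.773 and -1.0003. The surface ectoderm list was less low, at -0.28 and -0.33. The forelimb-biased Hox list stood at -0.05 and 0.14, and the hindlimb-biased Hox list at -0.13 and 0.0021. The part of the cell type markers in the low values of the factors was not tested. No gene of the cartilage, endothelium, muscle, surface ectoderm, blood or tendon lists passed the threshold between genotypes.

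**Figure D4:**
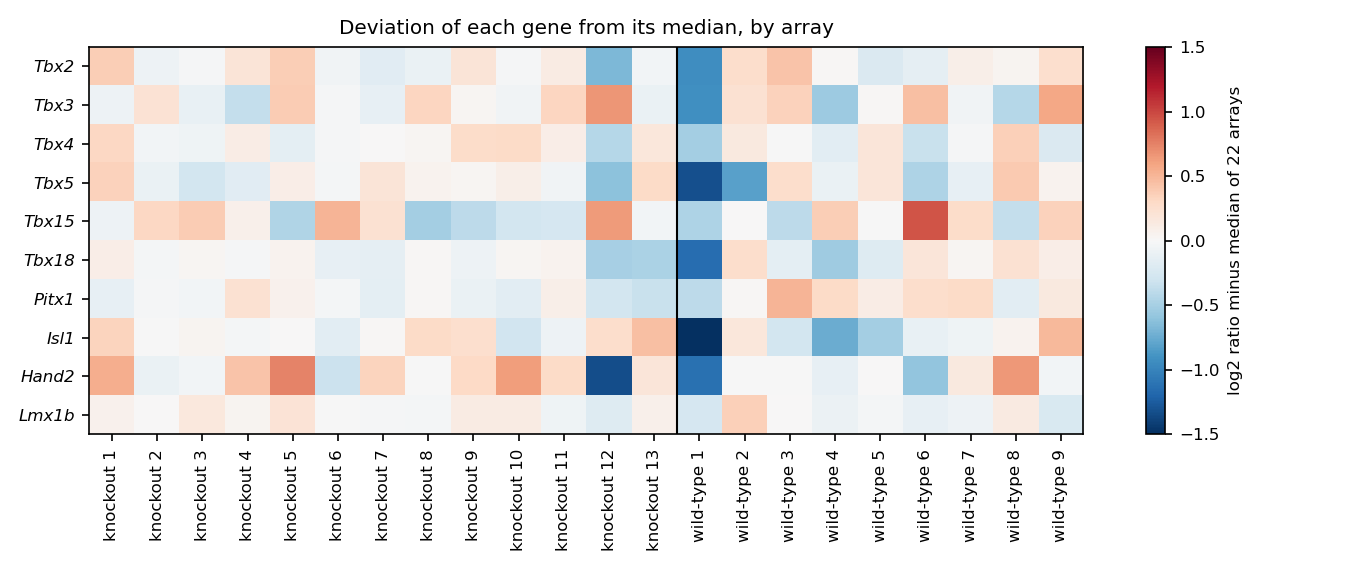
Log2 ratio of each factor minus its median over the 22 arrays, for the 13 knockout arrays (left of the line) and the 9 wild-type arrays (right of it); blue is lower and red higher. Wild-type 1 is blue for all 10 factors, and knockout 12 is blue for Hand2 and Tbx2 and red for Tbx3 and Tbx15.

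Across arrays, with the genotype means removed, Tbx4 and Hand2, each by its first probe, rose and fell together most closely. For most of the pairs that passed, r was lower without background correction, and also by the scanner's ratio and with Cy5 alone. Of the 45 pairs, 13 had a positive correlation and 0 a negative one past an adjusted permutation p of 0.05 by Pearson's r. These 13, or 28.9% of the pairs, reached an r of at least 0.584, as did 6.29% of all pairs of 16142 named genes. By Spearman's rho 1 pair passed. It was also the closest by r, Tbx4 and Hand2 (r = 0.787, permutation p = 3e-05, adjusted p = 0.00135, rho = 0.670, p = 0.00076, n = 22). The correlation was 0.722 within the 13 knockout and 0.896 within the 9 wild-type arrays, 0.752 with slide means removed and 0.794 with position means removed. Without knockout 12 and wild-type 1, the 2 farthest arrays, r was 0.588 (permutation p = 0.0079). Under other normalisations of all arrays r was 0.745 without background correction, 0.833 with Cy5 alone and 0.412 by the scanner's ratio. Tbx4 stands here by its first probe, at 89.2 to 217 units in Cy5. The second Tbx4 probe followed that one at r = 0.464, or 0.085 without the 2 farthest arrays, and was not set against Hand2. For Tbx5 and Hand2 r was 0.719 (adjusted p = 0.00427, rho = 0.573, p = 0.00478), with 0.468 (permutation p = 0.0428) without the 2 farthest arrays and 0.319 without background correction.

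For the other 11 the permutation p was above 0.05 without the 2 arrays farthest in the first gene of the pair, with r from 0.086 to 0.463. Those were wild-type 1 and knockout 12, except for Tbx3 and Isl1, where they were wild-type 1 and wild-type 9. Over the 13 pairs the median r was 0.642 after normexp and loess and 0.679 with median centring. It was 0.331 without background correction, 0.352 by the scanner's background-subtracted ratio and 0.347 with normexp-corrected Cy5 alone. Tbx2 and Hand2, for example, had r = 0.777 (rho = 0.583) with all arrays and 0.444 without the 2 (permutation p = 0.0544), and Tbx2 and Tbx5 had r = 0.628 (rho = 0.325) and 0.086. Tbx18 and Isl1 had r = 0.686 (rho = 0.540) over all arrays, with -0.465 in the 13 knockout and 0.944 in the 9 wild-type arrays. Over the 21 arrays without wild-type 1 it was 0.313, and the difference between the genotypes was not tested. Of 16141 named genes, 0.774% correlated as highly with Tbx4 as Hand2 did, and 2.02% as highly with Hand2 as Tbx4 did. For Tbx18 and Hand2 these shares were 8.08% and 10.2%. Tbx15 tended to run against Hand2 (r = -0.446, rho = -0.459, permutation p = 0.0401 and 0.0362, adjusted p = 0.106). That r was -0.702 without wild-type 1 and -0.180 without wild-type 6 and knockout 12, the 2 arrays farthest in Tbx15.

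**Figure D5:**
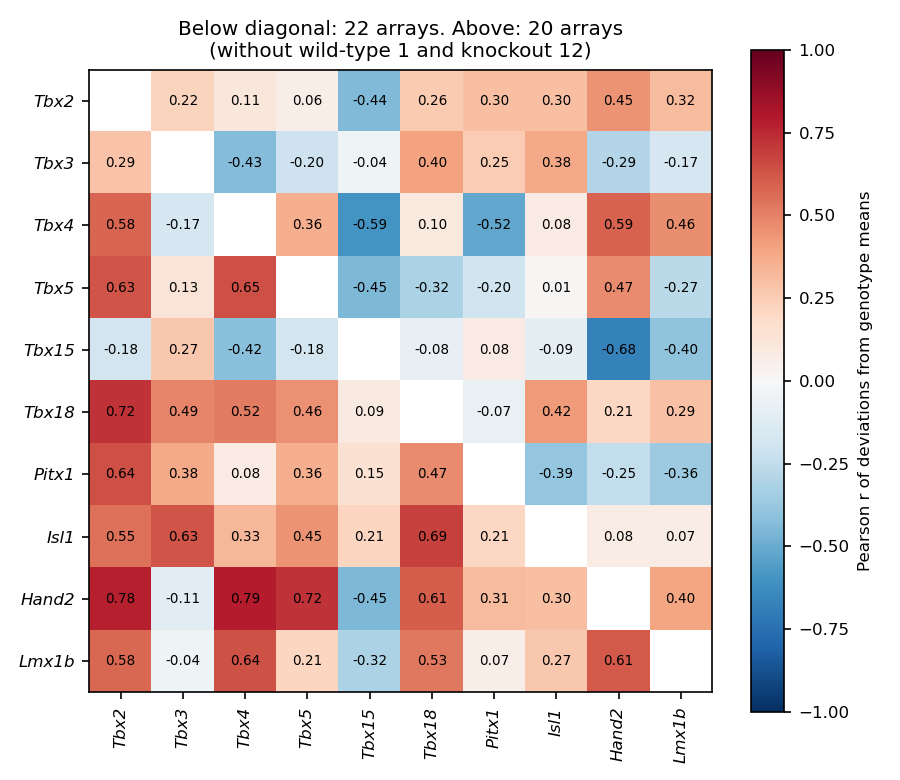
Pearson correlation of each pair of factors, from deviations from the genotype means, over all 22 arrays (below the diagonal) and over the 20 arrays left without knockout 12 and wild-type 1 (above it). Tbx4 and Hand2 stand at 0.787 below and 0.588 above the diagonal, and Tbx2 and Tbx5 at 0.628 and 0.064.

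The 3 Tbx15 probes did not measure the same pattern. The first 2 lie close together (chromosome 3, 99483039 to 99483098 and 99482760 to 99482819) and followed each other (r = 0.957, rho = 0.947, permutation p = 1e-05 for each, n = 22). The third (chromosome 3, 99481467 to 99481526), which the files give with another RefSeq accession, ran against them, with r = -0.465 (rho = -0.436) to the first and -0.578 (rho = -0.615) to the second (permutation p = 0.0371 and 0.00588, adjusted p = 0.0446 and 0.00882 over 6 probe pairs). Adjusted instead over the 10 relations of the third probe to the factors, the permutation p of the first and the third was 0.0622. Their r was -0.171 without the 2 arrays farthest in the first, and -0.589 (permutation p = 0.00935) without the 2 farthest in the other. For the second and the third it was -0.508 without the 2 farthest in the second. Under other normalisations the first and the third stood at -0.679 without background correction, -0.665 by the scanner's ratio and -0.129 with median centring. The third probe instead followed Tbx4 (r = 0.847, rho = 0.800, permutation p = 1e-05 and 5e-05, adjusted p = 1e-04 over 10 relations, n = 22) and Hand2 (r = 0.769, rho = 0.683, permutation p = 5e-05 and 0.00064, adjusted p = 0.00025). Without the 2 arrays farthest from the median of the third probe, r was 0.748 (permutation p = 0.0004) with Tbx4 and 0.588 (permutation p = 0.00955) with Hand2. Tbx2, Tbx5 and Tbx18 also passed with the third probe, at r = 0.590, 0.608 and 0.609 (permutation, adjusted p = 0.011 for each). Without the same 2 arrays these were 0.225, 0.356 and 0.380. By the scanner's ratio the third probe had r = 0.537 with Tbx4 and 0.428 with Hand2. Between genotypes the second probe differed by -0.17 (interval -0.54 to 0.21) and the third by 0.11 (interval -0.18 to 0.40). The third probe was dimmer, at 119 to 506 units in Cy5 on all 22 arrays, and its transcript was not identified here.

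Outside the factors, the genes whose deviations were most like theirs are given as descriptions over the 22 arrays, which share 1 reference and 1 set of hybridisations. The gene nearest to Hand2 was Hoxd11, a 5′ Hoxd gene of the distal and posterior limb, with r = 0.956, or 0.961 in the 21 arrays without wild-type 1, 0.908 without background correction and 0.556 by the scanner's ratio. After it came Eif2ak1 (r = 0.932, or 0.940 without wild-type 1) and Rogdi (0.931 or 0.928). Hoxd11 had log2 ratios of 0.78, 2.16 and 2.47 in knockout, against 0.67, 2.05 and 2.49 in wild type. Its difference was 0.17 (interval -0.24 to 0.57, adjusted p = 0.953). The gene nearest to Tbx4 was LOC631981, with r = 0.919, or 0.944 without wild-type 1. Next was Gli1, a transcription factor induced by Hedgehog signalling, with r = 0.916. For Gli1 r was 0.897 without wild-type 1, 0.813 without background correction and 0.428 by the scanner's ratio. Without wild-type 1, Srp68 (0.937) and Tomm40 (0.932) were nearer to Tbx4 than Gli1. Gli1 itself had 0.23, 0.88 and 1.32 in knockout, against 0.14, 0.98 and 1.42 in wild type, a difference of -0.08 (interval -0.36 to 0.20). The gene nearest to Pitx1 was the Iroquois homeobox gene Irx6 (r = 0.907, or 0.854 without wild-type 1 and -0.036 with Cy5 alone), followed by Col26a1, a collagen, at 0.887 and Aldh1a2, which makes retinoic acid, at 0.879.

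Nearest to Tbx15 was Fam171a1 (r = 0.955, or 0.960 without wild-type 1), nearest to Tbx18 Kcnmb4os2 (0.951 or 0.904), and nearest to Tbx2 C130021I20Rik (0.938 or 0.899). Tcf7l2, a transcription factor of the Wnt pathway, was nearest to Tbx3 (0.867 or 0.821), Serping1, an inhibitor of complement C1, to Tbx5 (0.856 or 0.742), and Ago1, an Argonaute protein, to Lmx1b (0.820 or 0.794). Without wild-type 1 another gene was nearest to Tbx3 (Esr1, an estrogen receptor, at 0.892, beside 0.223 with all arrays), Tbx5 (Ubald1, 0.871 and 0.542), Lmx1b (U2af2, a splicing factor, 0.823 and 0.696) and Tbx15 (Golm2, 0.964 and 0.949). Nearest to Isl1 with all arrays was Fnd3c2, at 0.777, which stood at 0.452 without wild-type 1. Without that array it was Isl2, a LIM homeodomain paralog of Isl1 in motor neurons, at 0.792, beside 0.720 with all arrays and 0.869 without background correction.

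Of 29 partners, regulators and targets of the factors, 25 were tested, 14 higher and 11 lower in knockout, with 0 past the threshold and a median difference of 0.03 beside -0.0072 for all genes. Among those with the smallest p were Isl2 and Lhx9. Isl2 had log2 ratios of 0.43, 0.98 and 1.70 in knockout, against -0.02, 0.76 and 1.05 in wild type. The groups overlapped, and its difference was 0.47 (interval 0.16 to 0.78, unadjusted p = 0.00483, adjusted p = 0.910), or 0.41 without wild-type 1. Lhx9, a LIM homeodomain factor of the limb mesenchyme, had a difference of 0.25 (interval -0.08 to 0.57, adjusted p = 0.924).

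Of 11 other T-box genes, 5 were tested, 4 higher and 1 lower in knockout, with 0 past the threshold and a median of 0.07. Those with the smallest p were Eomes (0.07, interval -0.09 to 0.22), Mga (-0.13, interval -0.45 to 0.19) and Tbx6 (0.09, interval -0.14 to 0.32). The 6 forelimb-biased Hox genes had a median difference of -0.13, with 2 higher and 4 lower and 0 past the threshold, and Hoxc4 had the smallest p (-0.22, interval -0.47 to 0.03). Of 5 hindlimb-biased Hox genes 4 were tested, with a median of -0.0028, 2 higher, 2 lower and 0 past the threshold. Hoxc12 had the smallest p among them (-0.28, interval -0.66 to 0.10).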

How the data were processed

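The scanning software was Feature Extraction, version 9.5 in the submitters' processing notes and 9.5.3.1 in the file headers. Raw spot and background intensities were deposited, and, per the file headers, the deposited log10 ratio is that of the software's background-subtracted, dye-normalised signals. The authors' deposited value table equals it, with a largest difference of 0. Outlier, saturation and background flags were deposited as 0 or 1.

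From these, intensities were corrected with normexp (offset 50) and normalised by loess within each array, control and outlier spots were left out, and spots of a probe were averaged. Probes entered the test with a Cy5 signal well above background on 9 or more arrays, and a gene was represented by its brightest probe, giving 18631 genes and unnamed probes. Symbols came from a GRCm38.p6 table, and no annotation of mm8 was used. limma 3.58.1 (R 4.3.3) gave two-sided tests of the genotype difference on all 22 arrays, with Benjamini-Hochberg adjustment over all of them. Correlations used 100000 two-sided permutations of arrays within genotype. The level of a list in an array is the mean deviation of its tested genes from their medians.

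The members, the gene lists and the tests were chosen with earlier results of these data known. Named genes were the members, in each list the genes with the smallest p, and the genes most alike. Replicate numbers did not pair arrays: 3 of 9 same-numbered pairs correlated above 0.1. A result for 1 gene of the lists is not reported here.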

Additional observations from a re-analysis of the deposited data

Results flagged for a closer look

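Tbx2 in wild-type 1 stood far below the other wild-type arrays in the ratios after normexp and loess. Its log2 ratio was 2.12, against 2.84 in the nearest of the other 8, a gap beyond Dixon's 95% value for 9 samples. In the raw Cy5 signal the same array lay above 5 of the other 8 for Tbx2, and without background correction above 3. By the scanner's ratio it lay above 5 and with Cy5 alone above 2. The same rule marked 15.6% of all genes in wild type, where chance gives about 5%.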

How the results depend on the processing

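No factor passed the threshold under any of the 39 alternatives, with adjusted p-values from 0.107 to 1.00. Over all genes the count was 4, and it was 1 with median centring, the scanner's log ratio, slide as a block, the replicate block, position as a block, or without wild-type 1 and knockout 12 together (chosen after seeing the data). It was 2 without wild-type 1 and knockout 1, 7 with array weights, 0 within position 2, and 2 to 6 when single arrays were left out. Pairing by replicate number was only tried: 1 of 9 arrays correlated best with its own number. Directions of small differences turned as follows. Without background correction Tbx2 was -0.030 and Tbx18 -0.0040. With median centring, relative to a shift of 0.24 in the median of all genes, Tbx4 was -0.12, Tbx15 0.021 and Lmx1b -0.16. With the scanner's log ratio Tbx2 was -0.070, Tbx4 -0.057, Tbx18 -0.059 and Hand2 -0.049. With Cy5 alone Tbx2 was -0.0021 and Pitx1 0.086. With array weights Tbx2 was -0.034, Tbx3 -0.033 and Tbx18 -0.044. Without wild-type 1 and knockout 1, Tbx2 was -0.12 and Tbx18 -0.090, and without wild-type 1 and knockout 12 Tbx2 was -0.028, Tbx3 -0.039 and Tbx18 -0.041. With position as a block, and equally within position 2, Tbx2 was -0.033, Tbx3 -0.024, Tbx5 -0.12, Tbx15 0.12, Tbx18 -0.090, Isl1 -0.032 and Hand2 -0.12. Leaving out single arrays moved Tbx2 between -0.085 and 0.086, Tbx15 between -0.14 and 0.041 and Tbx18 between -0.075 and 0.10, and turned no other factor. The cause was not tested for any of these. Quantile adjustment of intensities between arrays leaves ratios as they are, and the deposited value table was not run because it equals the scanner's ratio. The offset compresses ratios of dim probes, so the intervals of Tbx4 and Lmx1b do not bound RNA differences.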
